A study of Mus musculus with 38 samples.

Results

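A group of 9 genes was followed across the whole series, namely mouse *Htt*, 3 of its protein partners (*Hap1*, *Hip1* and *Rasd2*), *Bdnf* and its receptor *Ntrk2*, and the regulators *Rest*, *Ppargc1a* and *Sirt1*. They were chosen by name, as 9 of the 19937 genes that a probe set with 1 gene symbol represents, and each gene was read from the probe set with the highest mean signal, out of 34760 probe sets in all. 8 of the 9 genes have 1 such probe set and *Ppargc1a* has 2. RNA of the dissected hypothalamus of 38 female FVB/N mice was hybridised to Affymetrix Mouse Gene ST arrays, with 1 array per mouse. In the AAV experiment, 5 mice received a vector for wild-type huntingtin (18Q, 18 CAG repeats) and 8 mice a vector for mutant huntingtin (79Q, 79 CAG repeats), and 5 uninjected mice were the WT control. The vectors code for the first 853 amino acids of HTT under the human Synapsin-1 promoter, which is active in neurons, and were injected on both sides at 8 weeks of age. The injected mice were killed 4 weeks later, at 12 weeks of age, and the WT control mice were also 12 weeks old. The experiment has no group with a vector that lacks HTT. In the transgenic experiment, BACHD mice, which carry full-length human HTT with 97 CAG repeats and express it in all tissues, were compared with WT mice at 2 months (6 against 6) and at 10 months of age (5 against 3).

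Huntingtin is a large scaffold protein of vesicle and organelle transport, and its expansion causes Huntington's disease. It binds HAP1, which links it to the dynein and kinesin motors, and HIP1, an adaptor of endocytosis. BDNF is a growth factor that neurons carry in vesicles and release at synapses, where it acts on the receptor TrkB, the product of *Ntrk2*. In the hypothalamus BDNF and TrkB take part in the control of feeding and body weight. REST is a repressor that binds a DNA element named RE1 and silences neuronal genes in other cell types, and wild-type huntingtin is known to hold it in the cytoplasm. PGC-1alpha, the product of *Ppargc1a*, switches on genes of mitochondria, and the deacetylase SIRT1 acts on PGC-1alpha.

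All values are log2 signals after Robust Multi-Array Averaging (RMA), and a difference of 1 is a doubling. The paper does not state whether the AAV arrays, the arrays at 2 months and those at 10 months were normalized together. They were treated as separate runs, so group differences were tested within a run. The age by genotype term compares the BACHD differences at both ages and came from a joint fit of those arrays. An adjusted p is that of limma after Benjamini-Hochberg adjustment over all 34760 probe sets, and a gene was called where it was below 0.05. Exact permutation p-values of single genes were not adjusted for the number of genes or comparisons, and no gene was called by them. The median signal of an array ran from 7.38 to 7.46 in the AAV run, from 7.16 to 7.41 at 2 months and from 7.28 to 7.32 at 10 months. The hypothalamus was recognisable by *Pmch* and *Hcrt*, the genes of melanin-concentrating hormone and orexin, with mean signals of 12.49 and 12.70 in WT control mice. The signals of region markers varied between mice, however. The mean signal of 12 thalamus markers ran from 8.93 to 10.39 among the 12 arrays at 2 months, and that of 7 pituitary markers from 6.47 to 9.83. In the AAV run the mean of 15 hypothalamus markers was 9.83 to 9.96 in WT control mice, 9.18 to 9.98 in 18Q and 9.36 to 9.82 in 79Q. The mean of 12 microglia markers was 8.31 to 8.40 in WT control, 8.96 to 9.55 in 18Q and 8.90 to 9.69 in 79Q. All 12 markers had differences above 0 in each injected group, including the complement gene *C1qc* (1.92 in 18Q and 1.77 in 79Q). In whole tissue a smaller number of cells of a type and less RNA per cell cannot be told apart.

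**Figure D1:**
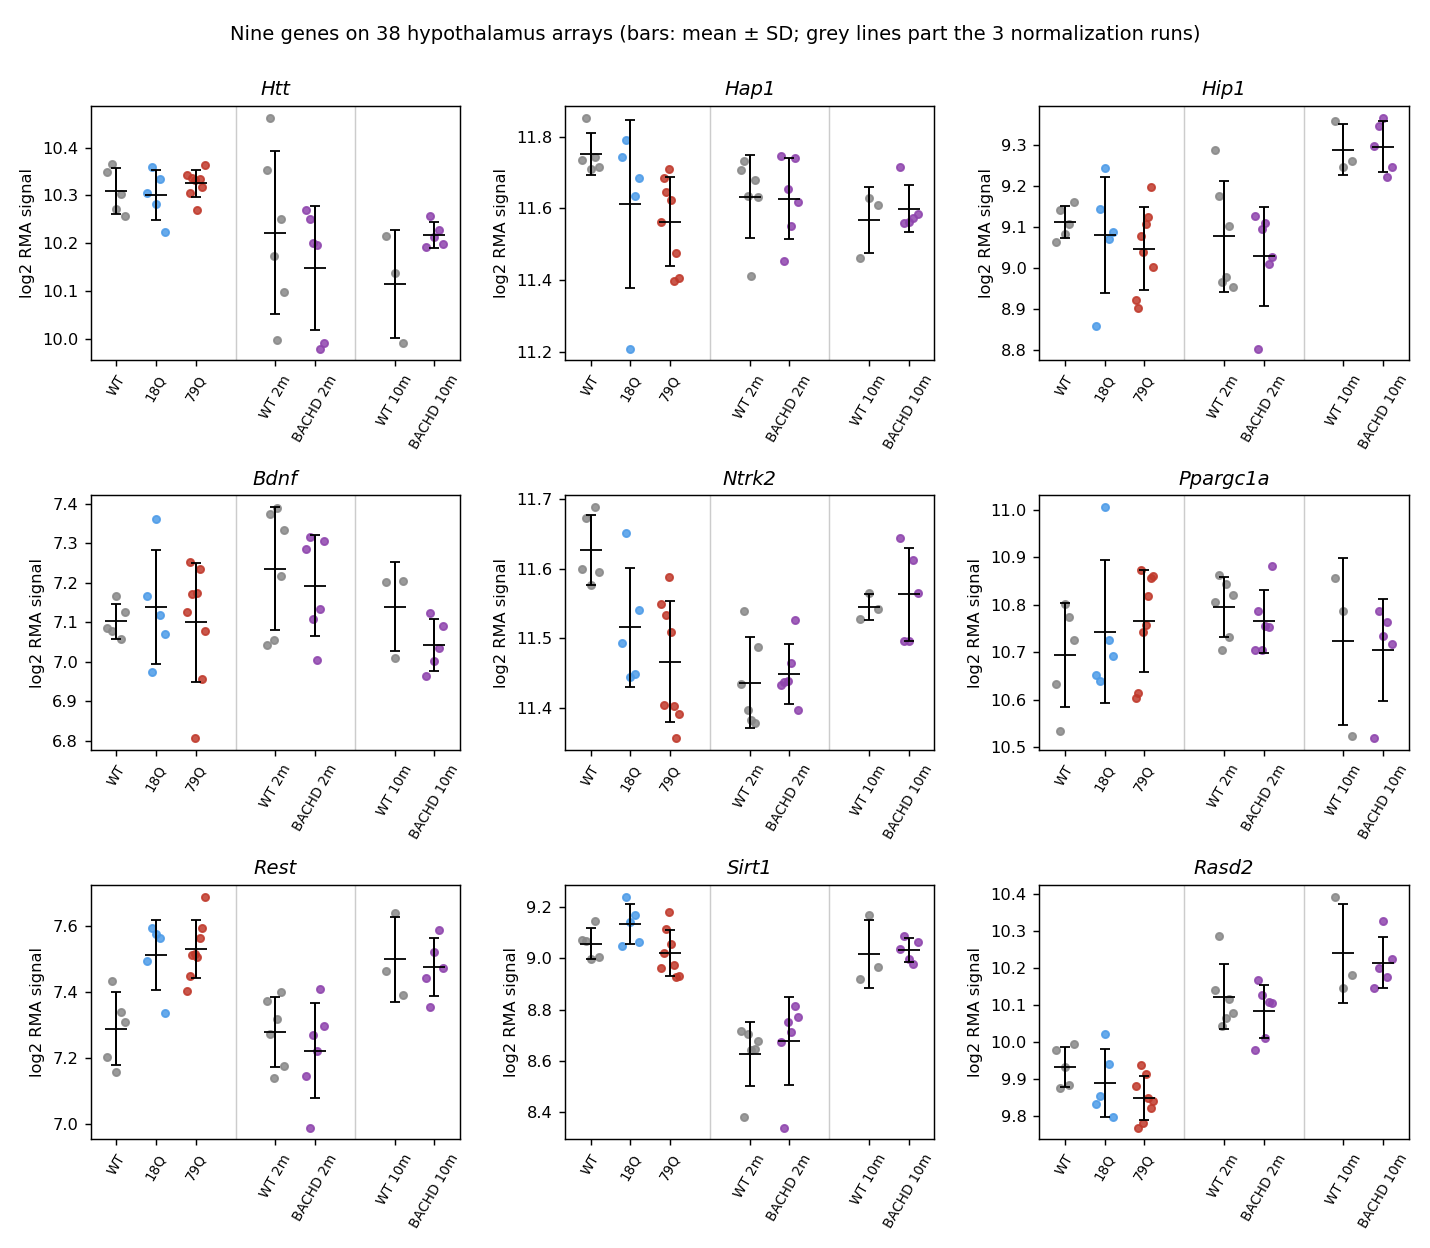
Signals of the 9 genes on the 38 arrays. The vertical axis of each panel is the log2 RMA signal of 1 gene, points are mice, and bars give mean ± SD by group. Grey lines part the 3 experiments, treated as separate normalization runs, between which levels were not compared. Most 18Q and 79Q mice lie above all WT control mice for *Rest*, and no gene separates BACHD from WT mice at either age.

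Of the 9 genes, 1 was called in any comparison, namely *Rest*, which was higher in 79Q vs. WT. Over all probe sets, 2.07% were called there, and 1.49% were called as higher. None of the 9 genes was called in 18Q vs. WT, where 2.11% of all probe sets were. No gene and no probe set was called in 79Q vs. 18Q (0%), in BACHD vs. WT at 2 months (0%) or at 10 months (0%), or in the age by genotype term (0%). At an unadjusted p below 0.05, limma gave 3 of the 9 genes for 79Q vs. WT (14.0% of all probe sets), 2 of them for 18Q vs. WT (12.6%) and 1 gene when 79Q was compared with 18Q (4.24%). It gave 0 at 2 months (4.09%), at 10 months (4.55%) and for the age by genotype term (2.62%). None of the 9 genes had groups without overlap in any comparison. This held for 2.71% of all probe sets between 79Q and WT, 4.07% between 18Q and WT, 0.0834% between 79Q and 18Q, 0.121% at 2 months and 3.49% at 10 months. Both AAV comparisons with WT share their 5 control mice.

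**Figure D2:**
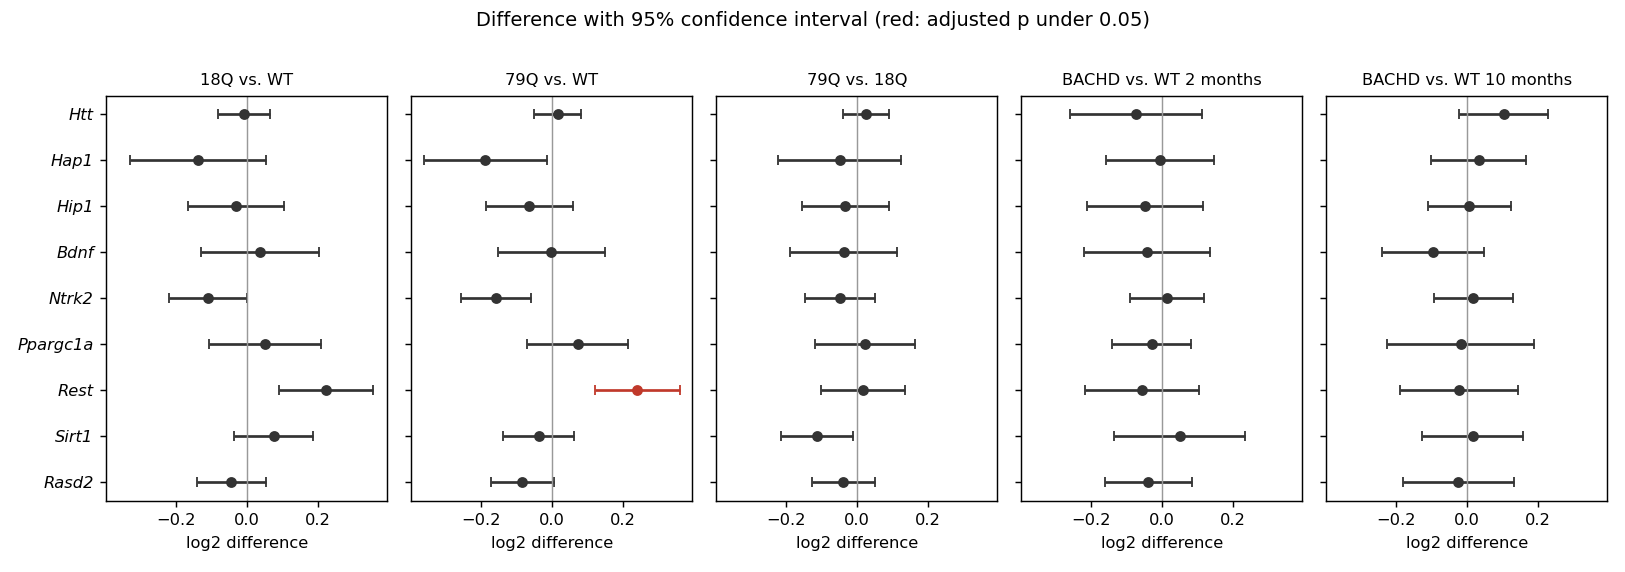
Differences of the 9 genes in the 5 comparisons. The horizontal axis is the log2 difference, points are limma estimates with 95% confidence intervals, and red marks an adjusted p below 0.05. The interval of *Rest* excludes 0 in 18Q vs. WT and in 79Q vs. WT and is red in 79Q vs. WT, and every interval at 2 and 10 months includes 0.

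Mouse *Htt* lies on chromosome 5 (GRCm38.p6, 34761721 to 34912534). The 250 bases before the start of its RefSeq transcript are shown because the endogenous gene is the reference for both models, and capitals mark the cAMP response element TGACGTCA, the site that the BDNF effector CREB binds. The stretch ends before the transcript start of the promoter table, which lies inside the gene range given above, so its last bases, the capitals among them, fall within that range. Among the promoter windows of 8 of the 9 genes, that of *Htt* alone held these letters on either strand, and 1.79% of all 32851 windows of the same length (250 bases before and 50 after a start) did.
Htt, chr5:34761490-34761739, plus strand: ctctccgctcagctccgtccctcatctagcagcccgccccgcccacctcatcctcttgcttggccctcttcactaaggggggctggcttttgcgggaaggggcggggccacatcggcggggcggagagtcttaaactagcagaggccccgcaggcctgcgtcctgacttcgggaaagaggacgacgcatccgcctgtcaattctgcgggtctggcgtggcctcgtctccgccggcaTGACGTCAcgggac

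The level of mouse *Htt* varied little in the AAV run. Its signals were 10.35, 10.37, 10.27, 10.30 and 10.26 in WT control mice, and 10.30, 10.36, 10.28, 10.33 and 10.22 in 18Q. In 79Q they ran from 10.27 over a median of 10.33 to 10.36. The 3 groups overlapped throughout. The order of the means was 79Q (10.33 ± 0.028, SD, n = 8), WT (10.31 ± 0.047, SD, n = 5) and 18Q (10.30 ± 0.052, SD, n = 5), and no neighbours in it differed beyond their spread. The difference was -0.0084 in 18Q vs. WT (95% CI -0.081 to 0.064, adjusted p = 0.962), 0.016 in 79Q vs. WT (95% CI -0.050 to 0.082, adjusted p = 0.890) and 0.024 between 79Q and 18Q (95% CI -0.041 to 0.090). The intervals bound a change of the probe set at 0.090 in these mice. Whether human HTT transcripts of the vector or of the BACHD transgene bind this mouse probe set was not tested.

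*Htt* spread more widely in the transgenic experiment. At 2 months it ran from 9.98 over a median of 10.20 to 10.27 in BACHD and from 10.00 over 10.21 to 10.46 in WT mice. The means were 10.15 ± 0.13 in BACHD and 10.22 ± 0.17 in WT (SD, n = 6 each), with a difference of -0.074 (SE 0.086, adjusted p = 0.941). At 10 months the BACHD mice had 10.19, 10.26, 10.21, 10.23 and 10.20 and the WT mice 10.21, 10.14 and 9.99. All 5 BACHD mice lay above the WT mean, and 1 WT mouse, replicate 3, was lower than the rest. The difference of 0.10 (SE 0.054) did not pass (adjusted p = 0.997, exact two-sided permutation p = 0.0714 where 0.0179 is the smallest possible), and without that mouse it was 0.041. The age by genotype term of *Htt* was 0.18 (SE 0.12, adjusted p = 0.9996). The spread at 2 months went with the median signal of the array. With group means removed, *Htt* and the array median had Pearson's r of 0.94 in the 12 arrays at 2 months, where the medians spanned the widest range, 0.023 in the 18 AAV arrays and 0.20 in the 8 arrays at 10 months. Over all 38 arrays Pearson's r was 0.82 (permutation p = 5.0e-05) and Spearman's rho 0.57 (permutation p = 0.00391), with adjusted p of 0.00225 and 0.0352 over the 45 relations between the 9 genes and 5 array measures, and r was 0.69 without the 2 arrays farthest from the median.

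*Hap1*, which is abundant in the hypothalamus, had 11.73, 11.85, 11.71, 11.74 and 11.72 in WT control mice and 11.74, 11.79, 11.21, 11.64 and 11.69 in 18Q. In 79Q it ran from 11.40 over a median of 11.59 to 11.71, and 7 of 8 mice lay below every WT control mouse. Replicates 6, 7 and 8 of 79Q, with 11.40, 11.47 and 11.41, and replicate 3 of 18Q were the lowest. The differences were -0.19 in 79Q vs. WT (SE 0.082, adjusted p = 0.303, exact permutation p = 0.00932) and -0.14 in 18Q vs. WT (SE 0.091, adjusted p = 0.597), and the latter was -0.038 without replicate 3. The same 4 mice had the lowest hypothalamus marker scores of the AAV run, with 9.41, 9.36 and 9.41 in 79Q and 9.18 in 18Q. They also had the highest thalamus marker scores of that run, with 9.44, 9.29 and 9.37 in 79Q and 9.50 in 18Q. Within the AAV run *Hap1* and the hypothalamus score had Pearson's r of 0.88, with group means removed, against 0.37 at 2 months and 0.94 at 10 months. Over all 38 arrays r was 0.76 (permutation p = 0.000120, adjusted p = 0.00270 over 45 relations), Spearman's rho was 0.69 (permutation p = 0.000150, adjusted p = 0.00675), and r was 0.70 without the 2 farthest arrays. With the thalamus score *Hap1* had r of -0.86 in the AAV run, -0.44 at 2 months and -0.18 at 10 months. Over all 38 arrays this r was -0.45 (permutation p = 0.00361, adjusted p = 0.0300) and rho -0.45 (permutation p = 0.00620, adjusted p = 0.0399), and r was -0.43 without the 2 farthest arrays. With the hypothalamus score as a covariate the difference of *Hap1* in 79Q vs. WT was 0.022 (SE 0.055, adjusted p = 0.958). Since all 15 markers of that score had estimates below 0 in 79Q vs. WT, with 1 called (*Hdc*, histidine decarboxylase, -0.81), dissection and treatment cannot be told apart in this fit. In BACHD mice *Hap1* ran from 11.45 to 11.75 at 2 months and from 11.56 to 11.72 at 10 months, and its differences from WT were -0.0054 and 0.032.

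**Figure D3:**
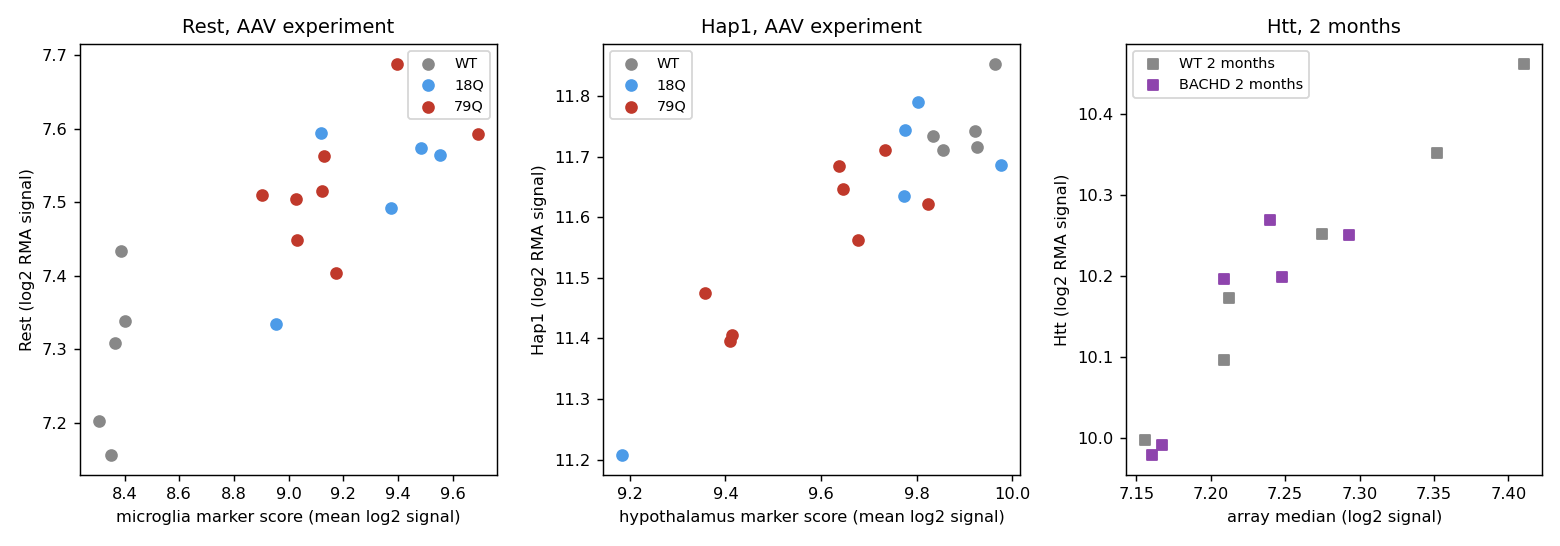
Members beside array measures. In the left and middle panels points are the 18 AAV mice, with *Rest* against the mean signal of 12 microglia markers and *Hap1* against that of 15 hypothalamus markers, and in the right panel the 12 mice at 2 months, with *Htt* against the median signal of the array, all on the log2 scale. Microglia scores of injected mice do not overlap those of WT mice, the 4 lowest *Hap1* signals sit at the 4 lowest hypothalamus scores, and *Htt* follows the array median.

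*Hip1* had 9.06, 9.14, 9.08, 9.11 and 9.16 in WT control mice and 8.86, 9.14, 9.24, 9.07 and 9.09 in 18Q, and ran from 8.90 to 9.20 in 79Q. Its groups overlapped, and the differences were -0.031 in 18Q vs. WT and -0.065 in 79Q vs. WT (95% CI -0.19 to 0.058, adjusted p = 0.703). *Rasd2* codes for Rhes, a small GTPase that is known from the striatum and binds mutant huntingtin. It ran from 9.88 to 10.00 in WT control, from 9.80 to 10.02 in 18Q and from 9.77 to 9.94 in 79Q mice, and was below the WT mean in 7 of 8 79Q mice. The difference in 79Q vs. WT was -0.084 (SE 0.042, adjusted p = 0.394, exact permutation p = 0.0295), and it was -0.044 in 18Q vs. WT.

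The wider list of huntingtin partners held 24 genes, of which 20 were measured, with *Hap1*, *Hip1* and *Rasd2* among them. In both AAV comparisons with WT, 18 of the 20 estimates were below 0. The medians were -0.038 in both, beside -0.011 and -0.016 over all probe sets. Of the partners 1 was called, in 79Q vs. WT, where 2.07% of all probe sets were. *Cbs*, the first enzyme of the path from homocysteine to cysteine, fell by 0.26 in 79Q vs. WT (SE 0.052, adjusted p = 0.0117). Its mean was 9.05 ± 0.065 in WT control (SD, n = 5) and 8.79 ± 0.10 in 79Q (SD, n = 8), and in 18Q, at 8.89 ± 0.091, the difference of -0.16 did not pass (adjusted p = 0.206). *Pacsin1*, an adaptor of synaptic endocytosis, differed by -0.14 in 79Q vs. WT and by -0.15 in 18Q vs. WT, without a call (adjusted p = 0.0829 and 0.0896).

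*Bdnf* had 7.08, 7.08, 7.17, 7.06 and 7.13 in WT control mice and 7.17, 6.97, 7.36, 7.12 and 7.07 in 18Q. In 79Q it ran from 6.81 over a median of 7.15 to 7.25. The injected groups spread on both sides of the WT mice, with an SD of 0.14 in 18Q and 0.15 in 79Q beside 0.044 in WT. The differences were 0.036 in 18Q vs. WT (95% CI -0.13 to 0.20, adjusted p = 0.920) and -0.0024 in 79Q vs. WT (95% CI -0.15 to 0.15, adjusted p = 0.994). At 2 months *Bdnf* ran from 7.01 over 7.21 to 7.32 in BACHD and from 7.04 over 7.28 to 7.39 in WT mice (difference -0.043, SE 0.082). At 10 months it was 6.96, 7.12, 7.001, 7.03 and 7.09 in BACHD and 7.20, 7.01 and 7.21 in WT mice. All 5 BACHD mice lay below the WT mean there, by -0.096 on average (SE 0.062, adjusted p = 0.997, exact permutation p = 0.196).

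*Ntrk2* was the member with the smallest adjusted p after *Rest* in 79Q vs. WT. WT control mice had 11.60, 11.67, 11.58, 11.69 and 11.60 and 18Q mice 11.49, 11.65, 11.44, 11.45 and 11.54. In 79Q it ran from 11.36 over a median of 11.46 to 11.59. 7 of 8 79Q mice and 4 of 5 18Q mice were below every WT control mouse. The difference was -0.16 in 79Q vs. WT (SE 0.047, 95% CI -0.26 to -0.060, adjusted p = 0.0990, exact permutation p = 0.00544) and -0.11 in 18Q vs. WT (SE 0.052, adjusted p = 0.391, exact permutation p = 0.0476). Neither was called. With the hypothalamus score as a covariate they were -0.082 and -0.061, so both were more than 1.5 times smaller. In 79Q vs. 18Q the difference was -0.049 (95% CI -0.15 to 0.050). At 2 and 10 months *Ntrk2* differed by 0.013 and 0.018 between BACHD and WT (95% CI -0.092 to 0.12 and -0.093 to 0.13).

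Around BDNF, 4 further lists were read. Of 10 measured neurotrophins and receptors, *Bdnf* and *Ntrk2* included, none was called in any comparison by limma. At an unadjusted p below 0.05, limma gave 3 lower ones in each AAV comparison with WT, and with *Ntrk2* these included *Ntrk3*, the neurotrophin-3 receptor, at -0.13 and -0.11. By that rule 6.50% of all probe sets were lower in 18Q vs. WT and 8.31% in 79Q vs. WT. In the other 4 comparisons limma gave 0 of the 10 genes. Of 14 measured genes of BDNF signalling limma called none in either AAV comparison with WT. At an unadjusted p below 0.05 it gave 2 and 1, beside 12.6% and 14.0% of all probe sets. The list medians of -0.0073 and -0.019 were close to those of all probe sets. Of 14 measured genes that cleave, pack or carry BDNF limma called none in either comparison (3 and 2 at an unadjusted p below 0.05, beside the same shares). *Pcsk1*, a prohormone convertase, differed by -0.18 and *Furin*, a protease that cleaves proBDNF, by 0.10 in 79Q vs. WT (adjusted p = 0.128 and 0.242). Of 12 activity and BDNF response genes 1 was called, in 18Q vs. WT, where 2.11% of all probe sets were. *Dusp6*, a phosphatase of ERK, rose by 0.32 in 18Q vs. WT (SE 0.077, adjusted p = 0.0315) and differed by 0.25 in 79Q vs. WT (adjusted p = 0.0737). Its levels were 8.25 ± 0.10 in WT control (n = 5), 8.58 ± 0.21 in 18Q (n = 5) and 8.51 ± 0.056 in 79Q (n = 8), as mean ± SD. *Vgf*, a neuropeptide precursor that BDNF induces and that is also on the list of REST targets, differed by -0.25 in 79Q vs. WT (adjusted p = 0.101) and by -0.32 in BACHD vs. WT at 10 months (adjusted p = 0.997).

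**Figure D4:**
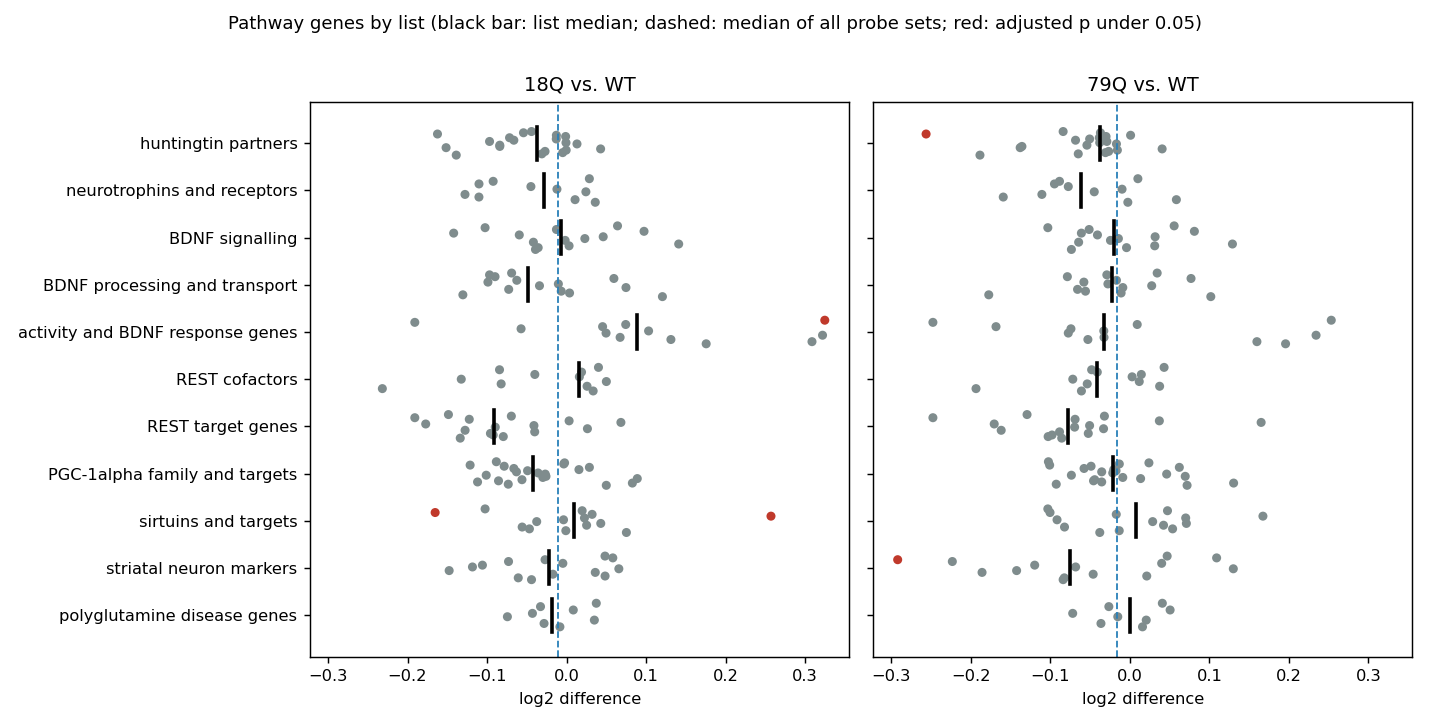
Log2 differences of the pathway genes, with 18Q vs. WT on the left and 79Q vs. WT on the right. Points are genes, grouped by list, black bars are list medians, dashed lines are the medians of all probe sets, and red marks an adjusted p below 0.05. Most genes lie within 0.2 of 0, 5 points are red, and the medians of the REST target genes are -0.091 and -0.077.

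*Rest* was the member that passed the test, in 79Q vs. WT. WT control mice had 7.20, 7.43, 7.16, 7.34 and 7.31, and 18Q mice 7.49, 7.59, 7.57, 7.56 and 7.34. In 79Q it ran from 7.40 over a median of 7.51 to 7.69. 7 of 8 79Q mice and 4 of 5 18Q mice lay above every WT control mouse, and all 13 injected mice above the WT mean. The order of the means was 79Q (7.53 ± 0.088, SD, n = 8), 18Q (7.51 ± 0.11, SD, n = 5) and WT (7.29 ± 0.11, SD, n = 5). *Rest* rose by 0.24 in 79Q vs. WT (SE 0.057, 95% CI 0.12 to 0.36, 1.18-fold, adjusted p = 0.0325, exact permutation p = 0.00155). The difference in 18Q vs. WT was 0.22 (SE 0.063, 1.17-fold), which did not pass (adjusted p = 0.0850, exact permutation p = 0.0238), and that between 79Q and 18Q was 0.016 (95% CI -0.10 to 0.14). In BACHD mice *Rest* ran from 6.99 over 7.25 to 7.41 at 2 months, beside 7.14 over 7.30 to 7.40 in WT mice. At 10 months it was 7.44, 7.35, 7.52, 7.59 and 7.47 in BACHD and 7.46, 7.64 and 7.39 in WT mice. The differences there were -0.057 (95% CI -0.22 to 0.11) and -0.023 (95% CI -0.19 to 0.14).

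*Rest* kept the sign of its difference in 79Q vs. WT in all 13 fits without 1 array, but its call was lost in 7 of them. Its difference in 79Q vs. WT was 0.21 to 0.28 when any 1 array was left out, and the adjusted p ran from 0.0208 to 0.109. The call was lost without 79Q replicate 6 (0.24, adjusted p = 0.0615), 7 (0.23, 0.0638) or 8 (0.22, 0.0636), and without WT control replicate 1 (0.22, 0.101), 4 (0.21, 0.109), 5 (0.25, 0.0604) or 7 (0.25, 0.0647). In 18Q vs. WT the call was gained without 18Q replicate 6 (0.27, adjusted p = 0.0191) or WT control replicate 2 (0.26, adjusted p = 0.0476). With the hypothalamus score as a covariate the difference in 79Q vs. WT was 0.18 (SE 0.066, adjusted p = 0.450). Within groups *Rest* and the microglia score had Pearson's r of 0.53 over the 18 AAV arrays, 0.42 at 2 months and -0.69 at 10 months. Over all 38 arrays r was 0.33 (permutation p = 0.0408, adjusted p = 0.131 over 45 relations) and Spearman's rho 0.32 (permutation p = 0.0694, adjusted p = 0.227), and r was 0.31 without the 2 farthest arrays. All 12 microglia markers had differences above 0 in both injected groups, from 0.15 to 1.92 in 18Q vs. WT and from 0.18 to 1.77 in 79Q vs. WT. The part of microglia in the level of *Rest* was not tested.

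The proteins that work with REST had no call in any comparison by limma (11 of 12 measured, with an unadjusted p below 0.05 for 1 gene in 79Q vs. WT, 2 genes in 18Q vs. WT and 1 gene between 79Q and 18Q). Over all probe sets 14.0%, 12.6% and 4.24% passed that rule in these comparisons. *Rcor2*, a CoREST protein, differed by -0.23 in 18Q vs. WT and by -0.19 in 79Q vs. WT (adjusted p = 0.0789 and 0.105). The list of REST target genes held 16 neuronal genes, all measured, of which limma called none. At an unadjusted p below 0.05, limma gave 7 of 16 as lower in 18Q vs. WT and 8 of 16 in 79Q vs. WT, where 6.50% and 8.31% of all probe sets were lower by that rule, and none as higher. 13 and 14 of the 16 estimates were below 0, with medians of -0.091 and -0.077 beside -0.011 and -0.016 over all probe sets. The mean signal of the list ran from 10.92 to 10.95 in WT control mice, from 10.81 to 10.90 in 18Q and from 10.82 to 10.90 in 79Q, so that the WT mice did not overlap the injected mice. This was not particular to the REST targets. The mean signal of the neurotrophins and receptors did not overlap either, at 9.403 to 9.438 in WT control, 9.366 to 9.401 in 18Q and 9.321 to 9.401 in 79Q. The median differences of the REST targets at 2 and 10 months were 0.0010 and -0.0013. Their mean signal was lower in BACHD at both ages, with overlap. At 2 months it was 10.97 ± 0.030 in BACHD and 11.02 ± 0.069 in WT mice (SD, n = 6 each). At 10 months it was 10.996 ± 0.010 in BACHD (SD, n = 5) and 11.03 ± 0.047 in WT mice (SD, n = 3). 12 pan-neuronal markers, of which 3 are also REST targets (*Snap25*, *Syn1* and *Stmn2*), had 4 and 5 of 12 genes lower at an unadjusted p below 0.05 after 18Q and 79Q, and 12 and 10 estimates below 0. Their medians were -0.086 and -0.062, and their mean signals overlapped between WT (11.55 to 11.62), 18Q (11.42 to 11.57) and 79Q (11.49 to 11.58). Whether the REST targets differ from the pan-neuronal markers was not tested.

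To show the element that REST binds, the same windows were searched on both strands for its left part, TTCAGCACC, which was found in 0.371% of the 32851 windows. None of the 8 members with a window held it. Only these exact letters within the windows were searched, so an RE1 elsewhere in a gene or with other letters would be missed. Of 10 REST targets with a window, 3 did (*Celsr3*, *Syn1* and *Unc13a*). The stretches of *Syn1* and *Celsr3* before the start are shown in GRCm38.p6, with these letters in capitals.
Syn1, chrX:20921101-20921168, minus strand: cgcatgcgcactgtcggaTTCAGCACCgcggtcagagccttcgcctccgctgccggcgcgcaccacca
Celsr3, chr9:108825878-108825967, plus strand: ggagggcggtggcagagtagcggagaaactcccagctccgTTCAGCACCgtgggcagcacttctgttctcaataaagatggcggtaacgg

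None of the 3 genes with these letters passed the test. *Syn1*, which codes for synapsin I of synaptic vesicles, was 11.82 ± 0.063 in WT control (n = 5), 11.69 ± 0.068 in 18Q (n = 5) and 11.74 ± 0.040 in 79Q (n = 8), as mean ± SD. Its differences of -0.13 and -0.086 did not pass (adjusted p = 0.119 and 0.294). *Celsr3*, a cadherin of axon guidance, was 9.79 ± 0.064, 9.80 ± 0.11 and 9.83 ± 0.10 in the same groups, with differences of 0.0031 and 0.037 (adjusted p = 0.993 and 0.840). *Unc13a*, a priming factor of synaptic vesicles, differed by -0.12 in 18Q vs. WT and by -0.069 in 79Q vs. WT (adjusted p = 0.222 and 0.489). Of the whole list, *Vgf* and *Stmn2*, a regulator of microtubules, had the smallest p in 79Q vs. WT, and *Stmn2* differed by -0.10 there (adjusted p = 0.103).

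*Ppargc1a* had 10.63, 10.53, 10.80, 10.77 and 10.73 in WT control mice and 10.65, 10.64, 11.01, 10.73 and 10.69 in 18Q. In 79Q it ran from 10.60 over a median of 10.79 to 10.87, and the groups overlapped. The differences were 0.050 in 18Q vs. WT (95% CI -0.11 to 0.21, adjusted p = 0.871) and 0.072 in 79Q vs. WT (95% CI -0.070 to 0.21, adjusted p = 0.716). The second probe set of *Ppargc1a* gave -0.057 and 0.054, so the probe sets disagreed in sign in 18Q vs. WT. The highest 18Q value, 11.01, was that of replicate 3, which had the lowest *Hap1* and the lowest hypothalamus score. In BACHD vs. WT the differences of *Ppargc1a* were -0.030 at 2 months and -0.018 at 10 months. Of 22 measured genes of the PGC-1alpha family and its targets in mitochondria none was called in any comparison by limma. At an unadjusted p below 0.05 there were 1 lower gene at 2 months, 2 lower genes in 18Q vs. WT and 1 higher gene in 79Q vs. WT, *Pprc1*, a relative of PGC-1alpha, at 0.13 (adjusted p = 0.145). In either direction, 4.09%, 12.6% and 14.0% of all probe sets passed that rule there. *Ppargc1b* differed by -0.092 in 79Q vs. WT (adjusted p = 0.360).

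*Sirt1* had 9.07, 9.07, 8.997, 9.15 and 9.01 in WT control mice and 9.05, 9.24, 9.14, 9.17 and 9.06 in 18Q. In 79Q it ran from 8.93 over a median of 8.996 to 9.18, and 7 of 8 mice lay below the 18Q mean. The order of the means was 18Q (9.13 ± 0.079), WT (9.06 ± 0.061) and 79Q (9.02 ± 0.090, all SD). The difference in 79Q vs. 18Q was -0.11 (SE 0.048, adjusted p = 0.99997, exact permutation p = 0.0466), the only one of the 9 genes below an unadjusted p of 0.05 in this comparison. The differences from WT were 0.075 in 18Q and -0.038 in 79Q, and those in BACHD mice 0.049 at 2 months and 0.015 at 10 months. In both groups at 2 months 1 mouse, replicate 2, stood far below the others, at 8.34 in BACHD and 8.38 in WT, where the other 10 mice ran from 8.64 to 8.82. Of 14 measured sirtuins and their partners 2 were called, both in 18Q vs. WT, where 2.11% of all probe sets were. *Nampt*, which makes the NAD precursor that SIRT1 depends on, rose by 0.26 (SE 0.063, adjusted p = 0.0379), and *Nmnat2*, the next enzyme of that path in axons, fell by 0.17 (SE 0.038, adjusted p = 0.0228). In 79Q vs. WT they differed by 0.17 and -0.10 (adjusted p = 0.162 and 0.161).

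In BACHD mice none of the 9 genes passed the test at either age, and for each of them the groups overlapped. At 2 months the estimates ran from -0.074 (*Htt*) to 0.049 (*Sirt1*) with a median of -0.040, beside -0.034 over all probe sets. At 10 months they ran from -0.096 (*Bdnf*) to 0.10 (*Htt*) with a median of 0.0065, beside 0.0071. The age by genotype terms ran from -0.053 (*Bdnf*) to 0.18 (*Htt*). Of *Hip1* and *Rasd2*, not yet given at these ages, *Hip1* ran from 8.80 to 9.13 in BACHD and from 8.95 to 9.29 in WT mice at 2 months, while its ranges at 10 months were 9.22 to 9.37 and 9.25 to 9.36. The ranges of *Rasd2* were 9.98 to 10.17 in BACHD and 10.04 to 10.29 in WT mice at 2 months, and 10.15 to 10.33 in BACHD and 10.14 to 10.39 in WT mice at 10 months. At 10 months, with 5 against 3 mice, the unadjusted 95% interval reached 0.164 to either side for the median probe set, and a call after adjustment over all probe sets needs more than an interval that excludes 0.

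How the 9 genes varied together was read over the 38 mice, with the mean of each group removed. Of 36 pairs, 2 passed after adjustment over the 36. *Hap1* and *Ntrk2* varied in the same direction (Pearson's r = 0.57, permutation p = 0.00243, adjusted p = 0.0437, Spearman's rho = 0.58, permutation p = 0.000600, adjusted p = 0.0108), with r of 0.61 in the AAV run, 0.43 at 2 months and 0.64 at 10 months. *Hap1* and *Ppargc1a* ran against each other (Pearson's r = -0.63, permutation p = 0.000350, adjusted p = 0.0126, Spearman's rho = -0.61, permutation p = 0.000260, adjusted p = 0.00936), with r of -0.76, -0.28 and -0.76. Without the 2 arrays farthest from the median of *Hap1*, r was 0.56 (adjusted p = 0.0216) and -0.53 (adjusted p = 0.0666), so that the pair of *Hap1* and *Ppargc1a* no longer passed. All 3 genes also went with the hypothalamus score over the 38 arrays (r = 0.76, 0.54 and -0.60 for *Hap1*, *Ntrk2* and *Ppargc1a*). For *Ntrk2* the permutation p was 0.00400, adjusted 0.0300, with rho of 0.55 (permutation p = 0.00159, adjusted p = 0.0352), and r was 0.53 without the 2 farthest arrays and 0.62, 0.22 and 0.65 in the 3 runs. For *Ppargc1a* the permutation p was 0.00194, adjusted 0.0218, with rho of -0.53 (permutation p = 0.00269, adjusted p = 0.0352), and r was -0.46 without the 2 farthest arrays and -0.68, 0.023 and -0.86 in the 3 runs. *Ppargc1a* also went with the score of 12 pan-neuronal markers (r = 0.53, permutation p = 0.00105, adjusted p = 0.0157, rho = 0.49, permutation p = 0.00366, adjusted p = 0.0352), with r of 0.50 without the 2 farthest arrays and 0.64, 0.44 and 0.43 in the 3 runs. *Htt* did not pass with any other member, but it ran against the hypothalamus score (r = -0.39, permutation p = 0.00545, adjusted p = 0.0350, rho = -0.45, permutation p = 0.00481, adjusted p = 0.0361), with r of -0.46 without the 2 farthest arrays and -0.16, -0.68 and -0.64 in the 3 runs. With the relations of *Htt* to the array median and of *Hap1* to both scores, 7 of the 45 relations passed.

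**Figure D5:**
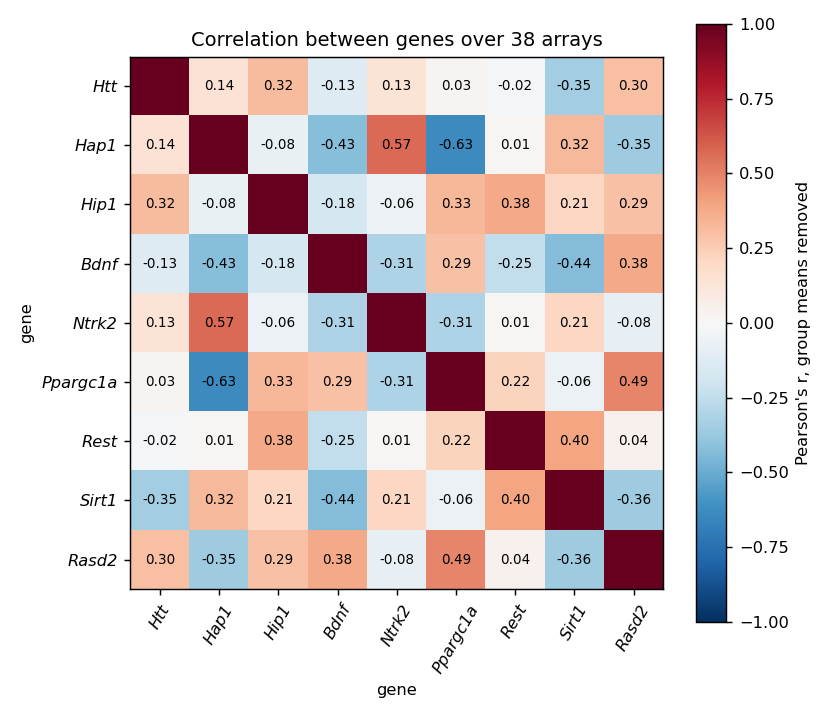
Correlation between the 9 genes over 38 mice. Colour and number give Pearson's r after the mean of each group was removed, with red above and blue below 0. The largest values are those of *Hap1* with *Ppargc1a* (-0.63) and with *Ntrk2* (0.57).

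For each member the 3 genes with the most similar values over the 38 mice were taken from 19937 genes, as a description without a test. *Htt* was most like *Psme4*, *Dync1h1* and *Mfn1* (r = 0.91, 0.91 and 0.90). *Dync1h1* codes for the heavy chain of dynein and is also on the list of BDNF transport, and its r with *Htt* was 0.73 in the AAV run, 0.96 at 2 months and 0.87 at 10 months. *Htt* itself went with the array median, with r of 0.94 at 2 months and 0.82 over all 38 arrays. The part of the array median in these likenesses was not tested. *Hap1* was most like *Esyt3*, *Baiap3* and *Rgs9* (r = 0.93, 0.92 and 0.86). *Hip1* was most like *Abtb2* (0.82), *Bdnf* like *Tmem40* (0.75), *Ntrk2* like the thyroid hormone receptor *Thra* (0.78) and *Ppargc1a* like *Mpp7* (0.80). *Rest* was most like *Mbnl2*, a splicing factor, *Kdm3a*, a histone demethylase, and *Nipbl*, the loader of cohesin (r = 0.72, 0.67 and 0.65). *Sirt1* was most like *Antxr1* (0.82) and *Rasd2* like *Tppp* (0.68).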

How the data were processed

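Affymetrix Mouse Gene ST arrays were used for hypothalamic RNA of 38 mice. The authors read the arrays with affy 1.70.0 in R 4.1.1, left out samples with low RNA integrity and deposited log2 values after RMA. Whether the 3 experiments were normalized together is not stated in the paper, and they were treated as separate runs. Depth does not apply to arrays, so the number of mice limits the precision. Of 34760 probe sets, 21640 have 1 gene symbol, 1321 several and 11799 are not in the platform table used here.

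All probe sets were fitted with limma 3.58.1 (lmFit and eBayes) in R 4.3.3, without covariates and without a filter, with Benjamini-Hochberg adjustment. Each experiment had its own fit, except that the age by genotype term came from a joint fit of the BACHD and WT arrays of both ages. Single genes were also tested by exact two-sided permutation over mice, without adjustment, and correlations by 100000 permutations within groups. The fit was tested on simulated data for 79Q vs. WT over 34760 probe sets, with normal noise that was independent between probe sets. It recovered 17 of 50 changes of 0.25, 42 of 50 of 0.5, 48 of 50 of 1 and 50 of 50 of 2, with 6 false calls. No other probe set was changed, so these counts hold for that setting only and not for the real arrays. Alternatives covered scaling, a filter, the variance prior, a replicate block, marker scores as covariates, single arrays and other probe sets. Correlations with marker scores and the hypothalamus covariate were added after seeing the data. The labels do not give litters or batches, so p-values measure the spread between these mice.

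Genes named were the 9 members, list genes that were called, the 2 genes of a list that had the lowest p for 79Q vs. WT or a BACHD comparison, the 3 genes most alike each member and cell type markers. *Syn1*, *Celsr3* and *Unc13a* were named for their promoter letters. The 9 members and 18 further lists were chosen with earlier results of these data known.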

Additional observations from a re-analysis of the deposited data

Results flagged for a closer look

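Of the values of the 9 genes in the 6 groups of 4 to 10 mice, 54 sets in all, 9 held a mouse far from the others of its group, by the gap to the nearest mouse over the range of the group. Chance alone gives this in about 1 in 20 sets.

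*Hap1* was at 11.21 in 18Q replicate 3, where the next mouse had 11.64, and *Ppargc1a* was at 11.01 in the same mouse, where the next had 10.73. In BACHD replicate 1 at 10 months *Hap1* was at 11.72, next to 11.58, and *Ppargc1a* at 10.52, next to 10.72. *Hap1* was also at 11.85 in WT control replicate 2, next to 11.74, and at 11.41 in WT replicate 4 at 2 months, next to 11.63. In BACHD replicate 2 at 2 months *Hip1* was at 8.80, next to 9.01, and *Sirt1* at 8.34, next to 8.68. In WT replicate 2 at 2 months *Sirt1* was at 8.38, next to 8.64.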

How the results depend on the processing

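The call of *Rest* in 79Q vs. WT held under array-median centring (adjusted p = 0.0493), joint quantile normalization (0.0469), a filter that kept probe sets at or above the median of their means (0.0162), an intensity trend with a robust prior (0.0336) and the thalamus score as a covariate (0.0297). It was lost with the replicate block (0.23, adjusted p = 0.139) and with the hypothalamus score as a covariate (0.18, adjusted p = 0.450), an alternative chosen after seeing the data, and the number of the 9 genes called was then 0. The labels do not say what the replicate numbers mean. Correlations of same-numbered mice ran from -0.15 to 0.097 in 79Q vs. WT. They ran from -0.31 to 0.28 at 2 months, where 2 of 6 pairs were above 0.1. No comparison had all pairs above 0.1, but so few pairs cannot settle whether mice of a number shared a batch. With the replicate block the number of probe sets called in 79Q vs. WT was 402, against 721, and with the hypothalamus score it was 170, and 471 against 735 in 18Q vs. WT. Under the filter, *Rest* passed in 18Q vs. WT (adjusted p = 0.0469), so that 1 of the genes was called. Without any 1 array, 472 (18Q replicate 4) to 1129 (18Q replicate 6) probe sets and 0 to 1 of the 9 genes were called in 18Q vs. WT, 439 (WT control replicate 5) to 811 and 0 to 1 in 79Q vs. WT, 0 to 1 probe sets in 79Q vs. 18Q, and 0 in the other comparisons. Of the 36 pairs of genes, 7 correlated with array medians centred, *Hap1* with *Ntrk2* and with *Ppargc1a* among them, and 1 (*Hap1* with *Ntrk2*) without the 2 farthest arrays, against 2. The cause was not tested for any of these.

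Signs turned only for differences that did not pass the test. With array medians centred the sign turned for *Htt* -0.0049 in 79Q vs. WT, for *Hap1* 0.044, *Hip1* 0.00091, *Bdnf* 0.0064, *Ppargc1a* 0.020, *Rasd2* 0.010 in BACHD vs. WT 2 months, for *Hip1* -0.0023 in BACHD vs. WT 10 months, for *Hap1* -0.021, *Hip1* -0.0032, *Ntrk2* -0.053, *Ppargc1a* -0.047, *Rest* -0.024, *Rasd2* -0.043 in age by genotype. With all arrays quantile normalized together the sign turned for *Bdnf* 0.0046 in BACHD vs. WT 2 months, for *Hip1* -0.0048 in BACHD vs. WT 10 months, for *Ppargc1a* -0.015, *Rest* -0.015, *Rasd2* -0.019 in age by genotype. With the replicate block the sign turned for *Bdnf* -0.021 in 18Q vs. WT, for *Ppargc1a* -0.0061, *Rest* -0.024 in 79Q vs. 18Q, for *Ntrk2* -0.012, *Ppargc1a* -0.012, *Rest* -0.0017 in age by genotype. With the thalamus score as a covariate the sign turned for *Hip1* -0.043, *Ppargc1a* 0.024, *Rest* 0.049 in BACHD vs. WT 10 months, for *Sirt1* 0.033, *Rasd2* -0.0098 in age by genotype. With the hypothalamus score as a covariate the sign turned for *Bdnf* -0.015, *Ppargc1a* -0.033 in 18Q vs. WT, for *Hap1* 0.022, *Ppargc1a* -0.059 in 79Q vs. WT, for *Hap1* 0.028, *Ppargc1a* -0.026, *Rest* -0.0075 in 79Q vs. 18Q, for *Hap1* 0.012 in BACHD vs. WT 2 months, for *Hip1* -0.0043 in BACHD vs. WT 10 months. With its other probe set the sign turned for *Ppargc1a* -0.057 in 18Q vs. WT, for *Ppargc1a* 0.0099 in BACHD vs. WT 10 months. In 18Q vs. WT the range without 1 array was -0.023 to 0.011 for *Htt*, -0.072 to 0.024 for *Hip1*, -0.020 to 0.077 for *Bdnf*, -0.016 to 0.077 for *Ppargc1a*. In 79Q vs. WT the range without 1 array was -0.024 to 0.039 for *Bdnf*. In 79Q vs. 18Q the range without 1 array was -0.089 to 0.0072 for *Hip1*, -0.080 to 0.018 for *Bdnf*, -0.0036 to 0.088 for *Ppargc1a*, -0.028 to 0.037 for *Rest*. In BACHD vs. WT 2 months the range without 1 array was -0.050 to 0.029 for *Hap1*, -0.0025 to 0.033 for *Ntrk2*, -0.00017 to 0.12 for *Sirt1*. In BACHD vs. WT 10 months the range without 1 array was -0.021 to 0.064 for *Hap1*, -0.015 to 0.042 for *Hip1*, -0.0025 to 0.034 for *Ntrk2*, -0.12 to 0.049 for *Ppargc1a*, -0.077 to 0.048 for *Rest*, -0.033 to 0.090 for *Sirt1*, -0.072 to 0.052 for *Rasd2*. In age by genotype the range without 1 array was -0.015 to 0.082 for *Hap1*, -0.016 to 0.022 for *Ntrk2*, -0.087 to 0.079 for *Ppargc1a*, -0.020 to 0.11 for *Rest*, -0.10 to 0.041 for *Sirt1*, -0.032 to 0.092 for *Rasd2*.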

Other observations

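The polyglutamine disease genes, of which 8 of 9 were measured with *Htt* among them, had no call by limma in 18Q vs. WT or 79Q vs. WT and none at an unadjusted p below 0.05. Their medians were -0.018 and 0.00046. Of 14 measured markers of striatal neurons, *Rasd2* among them, 1 was called, in 79Q vs. WT, where 2.07% of all probe sets were. *Penk*, the precursor of enkephalin, fell by 0.29 in 79Q vs. WT (adjusted p = 0.0297). It differed by -0.027 in 18Q vs. WT (adjusted p = 0.940) and by -0.25 in BACHD vs. WT at 10 months (adjusted p = 0.997). *Tac1*, the precursor of substance P, differed by -0.22 in 79Q vs. WT (adjusted p = 0.0950). Of 10 astrocyte markers, 5 had estimates above 0 and 5 below 0 in 18Q vs. WT, with a median of 0.014, and in 79Q vs. WT 6 were above and 4 below 0, with a median of 0.016. Among them *Gfap* and *Aqp4* rose by 0.77 and 0.52 in 18Q vs. WT (adjusted p = 0.00494 and 0.0265), and *Gjb6*, a connexin, fell by 0.25 in 79Q vs. WT (adjusted p = 0.0449). Of 12 pan-neuronal markers, *Eno2* fell by 0.14 in 18Q vs. WT (adjusted p = 0.0315).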
